A study of Mus musculus with 12 samples.

Results

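The genes of the cytosolic ribosome and of its translation factors were followed in mouse hearts 8 h after coronary ligation or sham surgery. They were chosen by symbol alone: the ribosomal protein genes (Rpl, Rps, Rplp and Rpsa symbols, without the Rps6k kinases), the initiation factor genes Eif1 to Eif6 and the elongation factor genes Eef1 and Eef2, with the kinases, binding proteins and methyltransferases whose symbols start alike. The rule found 101 of 12393 genes with a probe set of their own, 49 of them ribosomal protein genes and 52 translation factor genes. A probe set is a group of short probes meant to read 1 transcript, though some list the symbols of several genes. Whether those used here also read related transcripts was not tested. Each gene was read by the probe set with the highest mean over the 12 arrays, and 96 of the 101 genes (47 ribosomal protein and 49 factor genes) were bright enough to test. The other 5 were Rpl39l and the pseudogene Rps15a-ps6, the eIF2 kinase gene Eif2ak2 and the methyltransferase genes Eef1aknmt and Eef2kmt, with mean signals between 5.97 and 16.2.

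Ribosomes are built from ribosomal RNA and about equal numbers of copies of each ribosomal protein, and the genes of these proteins are usually expressed together at high levels. Initiation factors bring the small subunit, the initiator tRNA and the capped mRNA together, and elongation factors deliver aminoacyl-tRNAs and move the ribosome along the message. Translation is slowed when eIF2 is phosphorylated by one of its kinases or when eIF4E-binding proteins hold the cap-binding factor, and the mRNAs of ribosomal proteins carry a pyrimidine tract at their very start through which the mTORC1 pathway controls their translation. In the heart, Rpl3l is known as a striated muscle paralog of Rpl3, and Eef1a2 as the muscle and neuronal form of elongation factor 1 alpha.

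The hearts came from C57Bl/6 mice, an inbred strain, with 3 mice and 3 arrays in each of 4 groups. Wake MI and wake sham mice were operated on between ZT13 and ZT15 and their hearts taken at ZT23, and sleep MI and sleep sham mice were operated on between ZT1 and ZT3 and their hearts taken at ZT11 (ZT counts hours from lights on). MI (myocardial infarction) was made by tying off the coronary artery that supplies the front of the left ventricle (left anterior descending), and the labels call the MI tissue infarcted myocardium. The part of the heart taken from sham mice and the sex of the mice are not given, and the time of surgery and the time of collection cannot be told apart.

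Heart tissue was evident from the 11 cardiomyocyte markers, whose summed signal was 79930 to 95930 in wake MI, 75200 to 83960 in wake sham, 85810 to 96730 in sleep MI and 69520 to 96360 in sleep sham hearts. Lymphocyte markers (7 of 7) were below a signal of 16 on every array. The 5 measured erythroid markers summed to 163 to 254.7 in wake MI, 156.9 to 267.5 in wake sham, 190.7 to 324.7 in sleep MI and 142.7 to 254.5 in sleep sham hearts. Of these 5, Hba-a1 and Hba-a2 were below 16 on every array and 3 were bright enough to test. Of 8 neutrophil markers tested, 7 rose after wake MI and 2 after sleep MI: the sum over 9 genes was 1344 to 3292 in wake MI against 274 to 790 in wake sham, and 1761 to 3198 in sleep MI against 514 to 2056 in sleep sham hearts. Atrial markers (4 genes) summed to 998 to 1436 in wake MI and to 1715 to 14690 in wake sham hearts. Fibroblast markers (3 of 7 fell after wake MI) summed to 5462 to 7068 in wake MI and 8066 to 12000 in wake sham hearts, and macrophage markers (2 of 9 fell) to 4933 to 5722 and 6456 to 10540. Endothelial markers (1 of 7 rose) summed to 10040 to 10830 in wake MI and 9284 to 9610 in wake sham hearts. In whole tissue, fewer cells of a type and less RNA per cell cannot be told apart, and the part of these cell types in the values below was not tested. Beta-actin is read at both ends of its mRNA, and the 3' over 5' signal, which grows as RNA breaks down, averaged 2.60 ± 0.62 (SD, n = 3) after wake MI, 1.79 ± 0.02 after wake sham, 2.40 ± 0.45 after sleep MI and 2.18 ± 0.28 after sleep sham surgery.

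Start sites were compared first, because the tract that marks ribosomal protein mRNAs lies there. RefSeq (GRCm38.p6) gave a start for 84 of the 101 genes, 42 in each class, and the 5'-most start of each gene was used. In the 30 bases around the start, 15 on each side, the longest run made only of C and T on the coding strand had a median of 7 bases in 37 ribosomal protein genes (paralogs left out), 4 in 42 factor genes and 4 in all 27025 genes. A run of 8 or more was present in 16 of 37 ribosomal protein genes (43.2%), 9 of 42 factor genes (21.4%) and 11.8% of all genes. Runs were counted wherever they lay in the window, also before the start, where they are not part of the mRNA. That of Rplp0, for one, has 5 bases and begins at -14 from the start, so these shares are not shares of mRNAs with a tract. These windows are shown for 5 ribosomal protein genes that were read by the array, with the longest run in capitals. Rps9 was the ribosomal protein gene that changed after MI, Rplp0 and Rps6 belonged to the panel of genes given whatever their values, and Rps18 and Rpl38 were chosen after their values were seen.
Rps9 (chr7:3704026-3704055, plus strand): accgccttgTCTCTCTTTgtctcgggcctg
Rps6 (chr4:86857353-86857382, minus strand): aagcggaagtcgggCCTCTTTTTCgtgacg
Rps18 (chr17:33955651-33955680, minus strand): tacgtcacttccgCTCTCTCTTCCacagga
Rpl38 (chr11:114668565-114668594, plus strand): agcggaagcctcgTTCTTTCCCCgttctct
Rplp0 (chr5:115559452-115559481, plus strand): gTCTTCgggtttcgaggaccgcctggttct

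Starts of 10 factor genes called after MI in wake hearts or over both times are shown in the same way, to be set beside those of the ribosomal protein genes. The run was 2 bases in Eif5 and Eif1b, 3 in Eif3d and Eif4h, 4 in Eif4a2, 5 in Eif2ak4 and Eif2b1, 6 in Eif3m, 8 in Eif2b2 and 15 in Eif3f. Only the runs of Eif2ak4, Eif2b2 and Eif3f reach past the start, and the others lie wholly before it. Eif3f codes for a subunit of the eIF3 scaffold.
Eif5 (chr12:111538086-111538115, plus strand): gagaTCgacgtgcatgcgagccaatgacaa
Eif1b (chr9:120492591-120492620, plus strand): gcggcgcgcggggCTaaatacgcggcgccg
Eif4a2 (chr16:23107453-23107482, plus strand): ccgcggaaaCCCCgtaggagcagggcggcc
Eif2ak4 (chr2:118388602-118388631, plus strand): gactcgaggccccgCCCTCagttcggtcac
Eif2b1 (chr5:124579117-124579146, minus strand): cgcactcgaTTTCCggcgccgacgagtgac
Eif2b2 (chr12:85219466-85219495, plus strand): tttcaccgagcggaagttgaCCTCTCTCgg
Eif3d (chr15:77970810-77970839, minus strand): gtggtagggccaTTTacgacagcgctggtc
Eif4h (chr5:134639395-134639424, minus strand): gtgcgaCTTgcgatcaggcagcgcggcgga
Eif3m (chr2:105017013-105017042, minus strand): TTTTCCggtcggcgtgtttctggatcggag
Eif3f (chr7:108934400-108934429, plus strand): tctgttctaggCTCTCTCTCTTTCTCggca

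Upstream of the start, 5 short motifs were searched on both strands of the 250 bases before it, and none of the 5 contains another. The ETS motif CCGGAAG was present in 43.2% of the 37 ribosomal protein genes, 16.7% of the 42 factor genes and 7.07% of all genes. The E-box CACGTG was present in 8.11%, 19.0% and 6.04%, and the AP-1 motif TGACTCA in 0%, 2.38% and 4.43%. The cAMP response element TGACGTCA was found in 5.41%, 0% and 1.6%, and TATAAA in 8.11%, 9.52% and 13%. Rps18 is printed as an example with 2 matches to the ETS motif in capitals, which begin 157 and 75 bases before the start. A match is a stretch of letters and was not tested for binding.
Rps18 (chr17:33955666-33955915, minus strand): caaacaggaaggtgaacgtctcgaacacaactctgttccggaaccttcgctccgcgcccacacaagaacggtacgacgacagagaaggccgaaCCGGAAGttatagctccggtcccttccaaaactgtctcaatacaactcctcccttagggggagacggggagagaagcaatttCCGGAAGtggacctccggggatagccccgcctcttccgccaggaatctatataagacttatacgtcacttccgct

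In wake hearts, ribosomal protein mRNAs differed little between MI and sham. Of 47 genes, 0 rose and 1 fell (Rps9, a small subunit protein), against 18.5% of all 8101 genes called in this comparison (7.79% higher and 10.7% lower). Called means an adjusted p below 0.05 in limma's moderated test on log2(signal + 16), with Benjamini-Hochberg adjustment over all 8101 genes. The median difference over the 47 genes was 0.02 on the log2 scale, and the median over all genes was -0.06. Sizes were small in both directions: the median of the absolute differences was 0.08 for ribosomal protein genes and 0.21 for all genes, and for 37 of the 47 genes the 95% interval of the difference lay between -0.5 and 0.5. The median SD between arrays of a group was 0.12 for ribosomal protein genes and also for factor genes, 0.14 for 278 other bright genes and 0.18 for all genes. Groups did not overlap for 10 of the 47 genes (21.3%), against 35.1% of all genes.

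**Figure D1:**
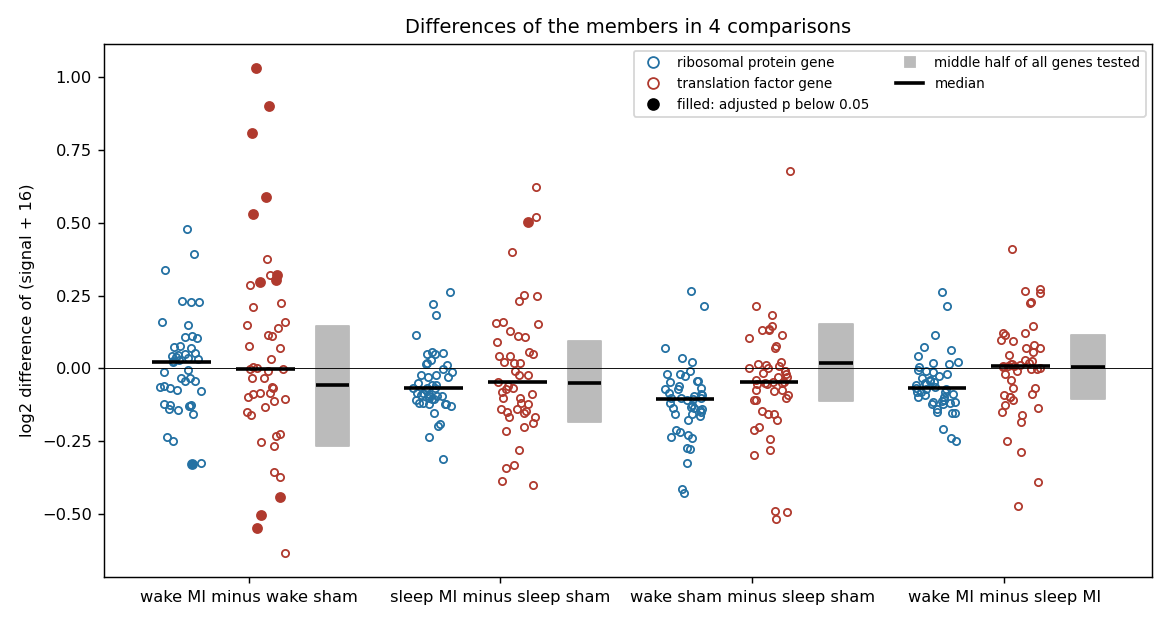
Log2 differences of (signal + 16) for 47 ribosomal protein genes (blue) and 49 translation factor genes (red) in 4 comparisons. Filled points had an adjusted p below 0.05, black bars are medians, and grey bars span the 25th to 75th percentile of all 8101 genes tested. Ribosomal protein genes stay close to their median in each comparison, while factor genes spread from -0.63 to 1.03 in wake hearts.

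The large subunit genes gave 0 calls in 20 after wake MI, with 2 (10%) at an unadjusted p below 0.05, against 33.0% of all genes. Differences ran from -0.13 to 0.39. Rpl13a, a large subunit protein, read 5713, 5233 and 6557 in wake MI hearts, 5171, 5405 and 5617 in wake sham hearts, 5795, 5895 and 5986 in sleep MI hearts and 6159, 5530 and 6675 in sleep sham hearts. Its groups overlapped, and the wake difference of 0.11 had a 95% interval from -0.10 to 0.32. The other 3 probe sets of Rpl13a had the opposite sign in wake hearts and over both times. Of all 4, 0 had an unadjusted p below 0.05 in limma in wake hearts and 2 over both times. Rpl22, another large subunit protein, differed by -0.03 in wake hearts (95% interval -0.29 to 0.22). Both measured proteins of the P stalk, the flexible arm that recruits elongation factors, also stayed within the spread. Rplp0 read 7571, 6514 and 6381 in wake MI hearts and 6521, 6183 and 6684 in wake sham hearts, while the sleep sham hearts alone spanned 5344 to 7798. Its wake difference was 0.07 (95% interval -0.20 to 0.35).

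Small subunit genes gave 1 call in 20 after wake MI, against 18.5% of all genes. Rps9, whose protein lines the channel where mRNA enters, read 1911, 1909 and 1855 in wake MI hearts, 2163, 2520 and 2476 in wake sham hearts, 2134, 2294 and 2134 in sleep MI hearts and 2422, 2437 and 2638 in sleep sham hearts. All 3 MI hearts were below all 3 sham hearts at both times. The wake difference was -0.33 (SE 0.09, limma adjusted p = 0.0188), the sleep difference -0.19 (adjusted p = 0.282), and over both times Rps9 fell by 0.26 (SE 0.06, adjusted p = 0.00915). The wake call ended without wake sham 2 or wake sham 3 (adjusted p up to 0.0762), and both calls ended in the mean of the gene's 3 probe sets, where each difference was -0.05. Rps6, the ribosomal protein phosphorylated by S6 kinases, read 165, 168 and 205 in wake MI hearts, 159, 193 and 165 in wake sham hearts, 176, 205 and 185 in sleep MI hearts and 229, 207 and 200 in sleep sham hearts. The values overlapped between MI and sham at both times, and the wake difference was 0.05 (95% interval -0.20 to 0.30). Rpsa, which also serves as a laminin receptor, differed by 0.10 (95% interval -0.18 to 0.39).

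Paralogs of ribosomal proteins gave 0 calls in 5 tested after wake MI, against 18.5% of all genes. An unadjusted p below 0.05 was reached by 2 of the 5, against 33.0% of all genes. Rpl3l, the muscle paralog, read 1423, 1406 and 1114 in wake MI hearts, 1408, 1333 and 1402 in wake sham hearts, 1261, 1259 and 1343 in sleep MI hearts and 1300, 1554 and 1361 in sleep sham hearts. Its wake difference was -0.08 (95% interval -0.31 to 0.15), so a fall of more than 0.31 on the log2 scale lies outside the interval. Rpl3 was not analysed here. Rps27l differed by -0.25 in wake hearts (adjusted p = 0.0861) and its partner Rps27 by 0.48 (adjusted p = 0.285), but Rps27 was read by a dim probe set with signals of 17.8 to 81.1. Rpl22l1 differed by -0.24 (adjusted p = 0.257), beside -0.03 for Rpl22. Rpl12, Rpl14, Rpl27a, Rpl37, Rpl39, Rps25 and Rps6 were also read by dim probe sets.

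After sleep MI, 0 of 47 ribosomal protein genes were called by limma, against 2.65% of all genes (1.68% higher and 0.975% lower). An unadjusted p below 0.05 was reached by 3 of 47 (6.38%), against 17.1% of all genes. Groups did not overlap for 3 of 47 (6.38%), against 23.5% of all genes. Their median difference was -0.07 (all genes -0.05), 35 of 47 were below 0, and for 42 of 47 the 95% interval lay between -0.5 and 0.5. Among all genes 60.3% were below 0. The difference between the wake and the sleep effect of MI was called for 0 of 47 (0% of all genes). At an unadjusted p below 0.05 were 2 of 47 (4.26%), against 10.5% of all genes. Over both times, Rps9 was the only call among the 47, against 22.1% of all genes (8.49% higher and 13.6% lower).

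In sham hearts, ribosomal protein mRNAs lay slightly lower at ZT23 than at ZT11. Wake sham was below sleep sham for 42 of 47 genes, with a median difference of -0.10, whereas 46.3% of all genes were below 0 and their median was 0.02. None of the 47 differences passed the test on its own, against 1.52% of all genes called. At an unadjusted p below 0.05 were 6 of 47 (12.8%), against 13.4% of all genes. Groups did not overlap for 6 of 47 (12.8%), against 20.1% of all genes. Rps6 was one of them, with the 3 sleep sham hearts at 200 to 229 above the wake sham hearts at 159 to 193 (difference -0.28, adjusted p = 0.31). This Rps6 probe set is dim, and the other of the gene's 2 probe sets had the opposite sign here. The same direction held among MI hearts, where 37 of 47 were below 0 (median -0.07), against 48.6% of all genes (median 0.01). Of the 47, 0 were called, against 0.0741% of all genes, and 2 (4.26%) were at an unadjusted p below 0.05, against 6.67%. Groups did not overlap for 7 of 47 (14.9%), against 10.9% of all genes. Both of these comparisons use different hearts, but the small shift was not evenly spread over them.

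**Figure D2:**
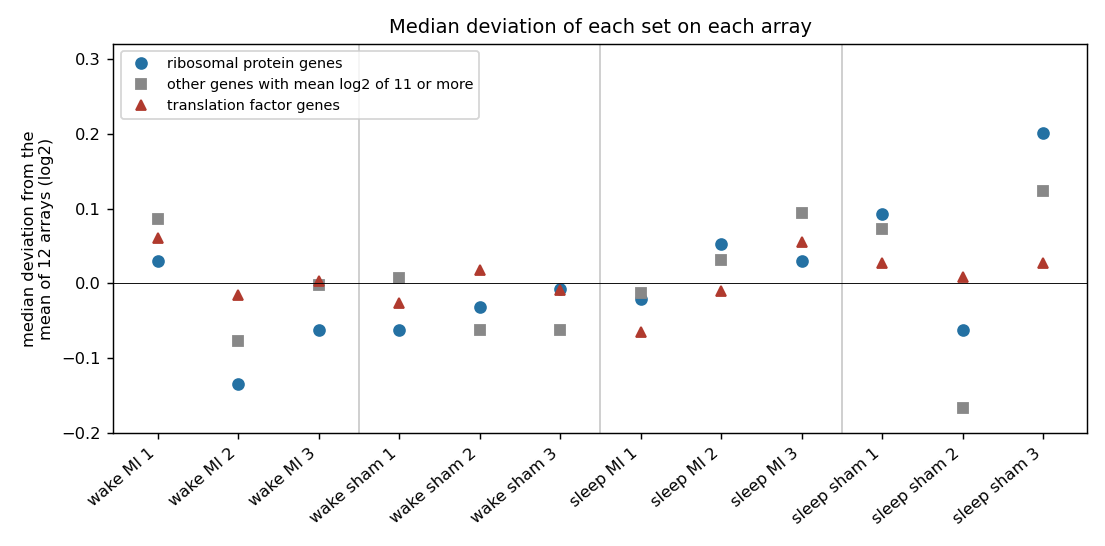
Median deviation of ribosomal protein genes (circles), translation factor genes (triangles) and 278 other genes with a mean log2 of 11 or more (squares) from each gene's mean over 12 arrays, in log2 units, with 1 column per array. Sleep sham 3 stands highest at 0.20 and wake MI 2 lowest at -0.13 for ribosomal protein genes, and the squares follow the circles on most arrays.

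Single hearts set much of that shift. The ribosomal protein median was 0.09, -0.06 and 0.20 above or below the gene means in the 3 sleep sham hearts, -0.06, -0.03 and -0.01 in the wake sham hearts, 0.03, -0.13 and -0.06 in the wake MI hearts, and -0.02, 0.05 and 0.03 in the sleep MI hearts. Sleep sham 2 lay at the lower end of the wake sham hearts, level with wake sham 1, while sleep sham 1 and 3 lay above all of them. The sham median went from -0.10 to -0.19 without sleep sham 2 and to -0.05 without sleep sham 3, and quantile normalization gave -0.04. Other bright genes moved on the same arrays, with medians of 0.07, -0.17 and 0.12 in the sleep sham hearts. They too lay lower at ZT23: their medians averaged -0.04 in wake sham and 0.01 in sleep sham hearts, and 0.00 in wake MI and 0.04 in sleep MI hearts. For ribosomal protein genes these averages were -0.03 and 0.08, and -0.06 and 0.02. Deviations of ribosomal protein genes from their group means had a median pairwise correlation of 0.48 over the 12 arrays, compared with 0.41 among the other bright genes and 0.07 among factor genes. All these pairs share the same 12 arrays and their scaling, and the part of the scaling in the shift was not tested.

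Probe sets that list several symbols gave a further reading of ribosomal protein genes outside the rule. Of 102 such probe sets, 93 were above the level filter, and their median difference was -0.02 after wake MI, -0.08 after sleep MI and -0.12 between wake and sleep sham hearts. After wake MI 1 of the 93 was called higher and 0 lower, and over both times 1 higher and 2 lower. These probe sets read some of the same transcripts on the same arrays, so they are a second reading and not further replicates.

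Translation factor genes, by contrast, were spread more widely after wake MI than ribosomal protein genes, but not more widely than all genes. Of 49 genes 8 rose, 3 fell and 38 did not pass the test, which is 22.4% called against 18.5% of all genes, and groups did not overlap for 17 of 49 (34.7%), against 35.1% of all genes. Eif1a, Eif5, Eif2ak4, Eif6 and Eif4ebp1 rose most, between 1.44-fold and 2.04-fold on the (signal + 16) scale, and Eif4a2, Eif1b and Eif3m fell. The median over the 49 genes was 0.00 and the median absolute difference 0.16, against 0.21 for all genes. After sleep MI, 1 of 49 rose (Eif5) and 0 fell, against 2.65% of all genes called. An unadjusted p below 0.05 was reached by 10 of 49 (20.4%), against 17.1% of all genes. Over both times 5 rose and 6 fell (22.4%), against 22.1% of all genes. The share of factor genes called was thus near that of all genes.

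**Figure D3:**
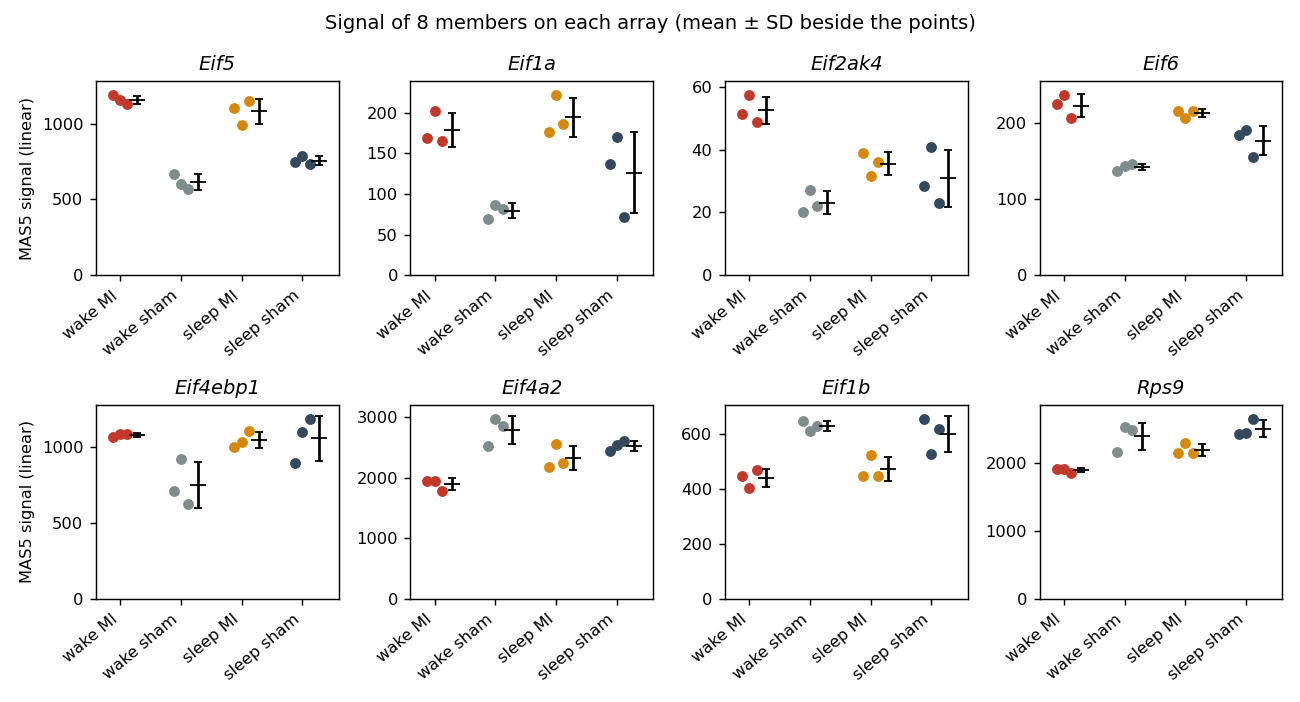
Signal (linear scale from 0) of 7 translation factor genes and Rps9 on each of the 12 arrays, with the mean and SD of 3 arrays beside the points of each group. In wake hearts, groups did not overlap for 35.1% of all genes. All 8 genes shown were among those called after wake MI, and their wake MI points do not overlap the wake sham points. Eif5 shows the same separation in sleep hearts, while Eif4ebp1 does not.

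The scanning factors gave the largest change. Eif1a, which codes for eIF1A, a small protein that keeps the 40S subunit open for scanning, read 169, 202 and 165 in wake MI hearts, 68.9, 87.0 and 82.2 in wake sham hearts, 176, 221 and 186 in sleep MI hearts and 137, 170 and 72.2 in sleep sham hearts. MI hearts were above sham hearts at both times without overlap, and sleep sham 3 was close to the wake sham level. The wake difference was 1.03 (SE 0.21, adjusted p = 0.00533), the sleep difference 0.62 (adjusted p = 0.143), and over both times Eif1a rose by 0.83 (adjusted p = 0.00187). A second probe set of the gene gave 1.65 in wake hearts, and in the mean of both the sleep difference reached 0.72 (adjusted p = 0.0453). Its X-linked paralog Eif1ax, named because it completes the pair, differed by -0.01 in wake hearts (95% interval -0.21 to 0.19). Eif1b, a homolog of the start codon factor eIF1, went the other way. It read 446, 402 and 467 in wake MI hearts, 645, 609 and 627 in wake sham hearts, 447, 521 and 445 in sleep MI hearts and 653, 526 and 617 in sleep sham hearts. Every MI heart was below every sham heart of its time, with a wake difference of -0.50 (SE 0.11, adjusted p = 0.00675) and a fall of 0.42 over both times (adjusted p = 0.00199).

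Among the factors that end scanning and join the subunits, Eif5 had the firmest change. It codes for eIF5, which triggers GTP hydrolysis by eIF2 at the start codon. Eif5 read 1185, 1154 and 1127 in wake MI hearts, 669, 602 and 567 in wake sham hearts, 1102, 991 and 1146 in sleep MI hearts and 743, 788 and 736 in sleep sham hearts. MI hearts lay well above sham hearts at both times, and wake sham lay below sleep sham without overlap. It rose by 0.90 in wake hearts (SE 0.09, 95% interval 0.70 to 1.10, adjusted p = 7.51e-05), by 0.50 in sleep hearts (SE 0.09, 95% interval 0.30 to 0.71, adjusted p = 0.0127) and by 0.70 over both times (adjusted p = 1.59e-05). The sleep call ended when sleep MI 1, sleep MI 3, sleep sham 1 or sleep sham 3 was left out (adjusted p up to 0.0716) and in the mean of the 4 probe sets (log2 0.36). The difference between the wake and sleep effects was 0.40 (95% interval 0.11 to 0.68), with an adjusted p of 0.327, and the other 3 probe sets gave it the opposite sign (-0.12, -0.07 and -0.05). The other 3 probe sets of Eif5, all dimmer, gave 0.39, 0.08 and 0.24 in wake hearts and were not called, and the mean of all 4 gave 0.40 (adjusted p = 0.0362).

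Eif6, whose product keeps the large subunit from joining too early and takes part in its maturation, read 225, 236 and 206 in wake MI hearts, 137, 144 and 146 in wake sham hearts, 216, 207 and 216 in sleep MI hearts and 184, 191 and 155 in sleep sham hearts. MI exceeded sham without overlap at both times, and the 2 MI groups were at a similar signal while wake sham was the lowest group. The rise was 0.59 in wake hearts (SE 0.10, adjusted p = 0.00219) and 0.42 over both times (adjusted p = 0.00152), and the sleep difference was 0.25 (adjusted p = 0.233). Eif5a, the hypusine-containing factor, differed by -0.06 in wake hearts (95% interval -0.26 to 0.13) and by 0.11 in sleep hearts (95% interval -0.09 to 0.30). Eif5a2 was not analysed here.

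Of the eIF2 and eIF2B genes, which load and recharge the initiator tRNA complex, Eif2b2 rose after wake MI and Eif2b1 fell over both times. Eif2b2, the beta subunit of the exchange factor eIF2B, read 340, 384 and 386 in wake MI hearts and 284, 287 and 319 in wake sham hearts, a difference of 0.30 (SE 0.10, adjusted p = 0.0428). The 2 groups did not overlap, but the call ended in 10 of the 12 fits that left out an array. Over both times the rise was 0.27 (adjusted p = 0.0137), and there it held without any 1 array but not in the mean of the gene's probe sets (0.17, adjusted p = 0.0983). Eif2b1, the alpha subunit, read 99.1, 101 and 101 in sleep MI hearts and 127, 134 and 149 in sleep sham hearts. Its difference was -0.39 in sleep hearts (adjusted p = 0.099), -0.23 in wake hearts (adjusted p = 0.18) and -0.31 over both times (adjusted p = 0.0167).

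Eif2s3y and Eif2s3x code for the Y-linked and X-linked gamma subunit of eIF2. Eif2s3y read 347, 371 and 83.3 in wake MI hearts, 370, 362 and 341 in wake sham hearts, 325, 344 and 288 in sleep MI hearts and 240, 192 and 223 in sleep sham hearts. Wake MI 3 was far below the other 11 arrays, and sleep sham hearts were below the rest. With all arrays no difference was called (wake -0.63, adjusted p = 0.238, and wake sham minus sleep sham 0.68, adjusted p = 0.431). Without wake MI 3, the difference over both times went from -0.06 to 0.26 (adjusted p = 0.0309), the sleep MI difference of 0.52 reached an adjusted p of 0.0177 and the sham difference of 0.68 an adjusted p of 0.00612. Eif2s3x differed by -0.16 in wake hearts (95% interval -0.44 to 0.12).

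Of the 3 eIF2 kinases tested, 1 rose after wake MI and 0 fell, where 7.79% of all genes rose and 10.7% fell. Eif2ak4, which codes for GCN2, the kinase that senses uncharged tRNA, read 51.3, 57.2 and 48.8 in wake MI hearts, 20.3, 27.1 and 22.1 in wake sham hearts, 38.8, 31.6 and 36.0 in sleep MI hearts and 28.4, 41.0 and 23.04 in sleep sham hearts. The wake groups were apart and the sleep groups overlapped. It rose by 0.81 in wake hearts (SE 0.15, adjusted p = 0.00321) and differed by 0.15 in sleep hearts (adjusted p = 0.656), but the difference of the 2 effects, 0.65 (95% interval 0.20 to 1.11), had an adjusted p of 0.32. These signals are low, so the log2(signal + 16) scale understates the change. Eif2ak1 (HRI, the heme-regulated kinase) differed by -0.08 in wake hearts (95% interval -0.40 to 0.23) and Eif2ak3 (PERK, the kinase of the endoplasmic reticulum) by 0.00 (95% interval -0.29 to 0.30). In sleep hearts Eif2ak3 read 34.7, 40.5 and 40.3 after MI and 59.7, 49.0 and 59.4 after sham surgery, without overlap (difference -0.40, adjusted p = 0.152).

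The eIF3 genes, which code for the scaffold that holds the 43S complex, went both ways in 11 measured subunits. Eif3d, the subunit that can bind the mRNA cap, read 463, 434 and 443 in wake MI hearts and 345, 384 and 334 in wake sham hearts, without overlap. Its difference of 0.32 (SE 0.11) just passed the test (adjusted p = 0.04998) and lost the call in 10 of 12 fits with an array left out. Eif3m fell in wake hearts, where it read 520, 443 and 364 after MI and 578, 603 and 621 after sham surgery (difference -0.44, SE 0.12, adjusted p = 0.0246). A second, dim probe set of Eif3m gave 0.60, so that the mean of both was 0.08 with no call, and the wake call also ended without wake MI 2, wake MI 3 or any 1 wake sham heart (adjusted p up to 0.0794). Over both times Eif3m fell by 0.30 (adjusted p = 0.0234) and Eif3f by 0.18 (adjusted p = 0.047), the last a call that ended in 10 of 12 fits with an array left out (adjusted p up to 0.106). The Eif3m call over both times ended without wake sham 3, sleep MI 3 or sleep sham 3 (adjusted p up to 0.0589).

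**Figure D4:**
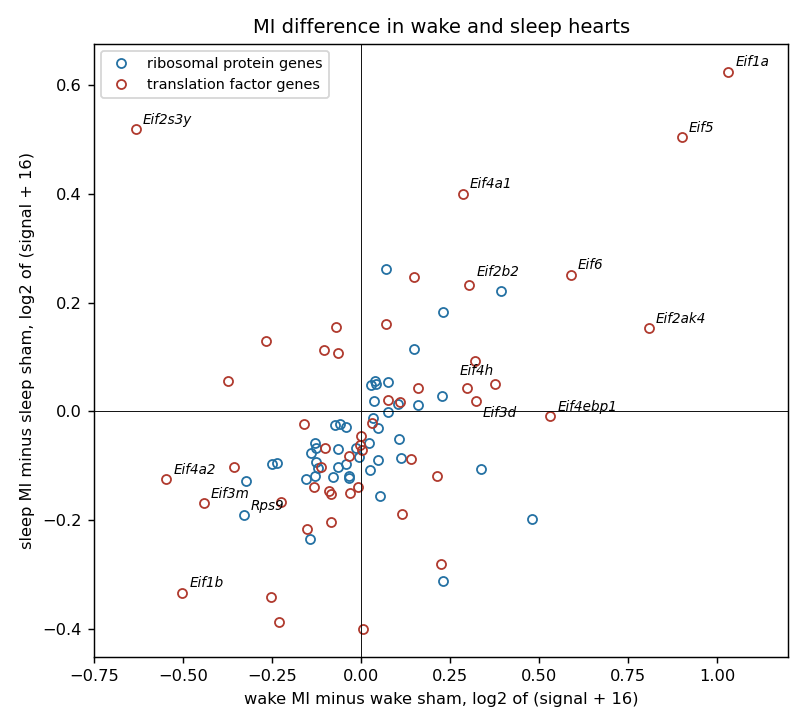
Log2 difference of (signal + 16) between MI and sham hearts in wake (horizontal) and sleep hearts (vertical), 1 point per gene for 47 ribosomal protein genes (blue) and 49 translation factor genes (red). Genes called at either time are named, with Eif2s3y and Eif4a1. Eif1a and Eif5 lie at the upper right, Eif4ebp1 and Eif2ak4 have larger wake than sleep values, and most ribosomal protein genes stay near the origin.

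In the cap-binding eIF4F complex, the helicase gene Eif4a2 fell after wake MI, and its paralog Eif4a1 did not pass the test. Eif4a2 read 1950, 1952 and 1783 in wake MI hearts, 2522, 2964 and 2856 in wake sham hearts, 2174, 2546 and 2241 in sleep MI hearts and 2440, 2538 and 2597 in sleep sham hearts. Wake MI was the lowest group and did not overlap wake sham, while the sleep groups overlapped. It fell by 0.55 in wake hearts (SE 0.09, adjusted p = 0.00193) and by 0.34 over both times (adjusted p = 0.00325), and differed by -0.12 in sleep hearts (adjusted p = 0.547). The difference of the 2 effects was -0.42 (95% interval -0.71 to -0.14, adjusted p = 0.294). Eif4a1 read 1486, 1853 and 1033 in wake MI hearts, 1252, 1098 and 1137 in wake sham hearts, 1467, 1535 and 1683 in sleep MI hearts and 1206, 1319 and 1027 in sleep sham hearts. Wake MI 3 lay below all wake sham hearts and the other 2 wake MI hearts above them, and in sleep hearts MI was above sham without overlap. Its differences were 0.29 in wake (adjusted p = 0.253), 0.40 in sleep (adjusted p = 0.237) and 0.34 over both times (adjusted p = 0.0508), none of them called. Which paralog changed relative to the other was not tested, since levels of different probe sets were not compared.

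Eif4h, which helps the helicase unwind mRNA, read 1101, 1213 and 1241 in wake MI hearts and 978, 981 and 922 in wake sham hearts. The groups did not overlap, and the rise was 0.30 (SE 0.09, adjusted p = 0.0326), a call that ended without wake MI 2, wake MI 3 or any 1 wake sham heart (adjusted p up to 0.116) and in the mean of its probe sets (0.18, adjusted p = 0.126). Eif4e, the cap-binding protein, read 886, 992 and 768 in wake MI hearts and 1215, 1028 and 1193 in wake sham hearts, without overlap, but the difference of -0.37 was not called (adjusted p = 0.076). Of its 3 probe sets, the other 2 gave the opposite sign in this comparison. Eif4g2, a scaffold relative without the part that binds eIF4E, differed by 0.15 (95% interval -0.17 to 0.47). Eif4g1 was not analysed here.

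Eif4ebp1 codes for 4E-BP1, which holds eIF4E until mTORC1 phosphorylates it. It read 1067, 1085 and 1090 in wake MI hearts, 714, 920 and 625 in wake sham hearts, 1000, 1035 and 1108 in sleep MI hearts and 896, 1099 and 1186 in sleep sham hearts. Wake sham was low, and the other 3 groups had means of 1081, 1048 and 1060. The wake difference was 0.53 (SE 0.13, adjusted p = 0.0154), the sleep difference -0.01 (95% interval -0.30 to 0.28), and wake sham was below sleep sham by -0.49 (adjusted p = 0.0945). Without wake sham 1 or wake sham 3 the wake call ended (adjusted p up to 0.0746), as it did in the mean of the gene's probe sets (0.32, adjusted p = 0.14). The difference of the 2 MI effects was 0.54 (95% interval 0.13 to 0.94) with an adjusted p of 0.339. Eif4ebp2, a second binding protein, differed by 0.38 in wake hearts (adjusted p = 0.0782) and by 0.05 in sleep hearts. The probe set used was dim, and of the gene's 5 probe sets 1 had the opposite sign in wake hearts and 4 in sleep hearts.

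Elongation factors gave 0 calls in 6 tested in wake hearts and in sleep hearts, where 18.5% and 2.65% of all genes were called. At an unadjusted p below 0.05 in limma were 1 and 0 of the 6, against 33.0% and 17.1% of all genes. Eef2, the translocase, read 2569, 2382 and 2588 in wake MI hearts, 2425, 2637 and 2469 in wake sham hearts, 2260, 2451 and 2752 in sleep MI hearts and 2682, 2506 and 2629 in sleep sham hearts. MI and sham overlapped at both times, with differences of 0.00 in wake (95% interval -0.19 to 0.20) and -0.07 in sleep hearts (95% interval -0.27 to 0.12). Eef1a1, the broadly expressed carrier of aminoacyl-tRNA, differed by 0.08 (95% interval -0.13 to 0.28) and 0.02 (95% interval -0.18 to 0.22). Eef1a2, the muscle form, read 2611, 2433 and 2244 in wake MI hearts and 2991, 2838 and 2691 in wake sham hearts, without overlap, with a difference of -0.23 (adjusted p = 0.135) and of -0.20 over both times (adjusted p = 0.0636). Eef2k, the kinase that blocks Eef2, was lowest in wake sham hearts (65.5, 72.8 and 66.7) and highest in sleep sham hearts (91.1, 115 and 102), a difference of -0.49 (adjusted p = 0.113). The methyltransferase gene Eef1akmt1 fell by 0.30 over both times (adjusted p = 0.0155, or 0.0586 in the mean of its probe sets), from 276 to 335 in wake sham and 292 to 352 in sleep sham hearts to 235 to 267 and 240 to 270 after MI.

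Between sham hearts, and between MI hearts, time of day was not called for any factor gene. Wake sham against sleep sham gave 0 of 49 (1.52% of all genes called), with Eif4ebp1, Eif2s3y, Eif1a and Eef2k at the largest differences. At an unadjusted p below 0.05 were 5 of 49 (10.2%), against 13.4% of all genes. Wake MI against sleep MI gave 0 of 49 (0.0741% of all genes called). Here 5 of 49 (10.2%) were at an unadjusted p below 0.05, against 6.67% of all genes. The difference of the MI effects was called for 0 of 49 (0% of all genes called). For it 8 of 49 (16.3%) were at an unadjusted p below 0.05, against 10.5% of all genes. That several factors were called in wake and not in sleep hearts is therefore not a shown difference between the times.

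Pathway genes around the ribosome were counted from lists chosen with earlier results of these data known. Of 35 ribosome biogenesis genes, 9 rose and 2 fell after wake MI, with a list median of 0.22 against -0.06 for all genes, of which 7.79% rose and 10.7% fell. Gnl3 (nucleostemin, a nucleolar GTPase) rose by 0.78 (SE 0.15, adjusted p = 0.00359), Nolc1 (a nucleolar chaperone) by 0.83 (adjusted p = 0.00384) and Mybbp1a (a nucleolar protein) by 0.55 (adjusted p = 0.00397). In sleep hearts 0 of the 35 were called by limma (6 at an unadjusted p below 0.05), with a median of 0.12, and over both times 10 rose and 4 fell (8.49% and 13.6% of all genes). Gnl3 and Nolc1 rose by 0.67 and 0.64 over both times, and Nop58, part of the box C/D snoRNA particles, by 0.49. The ribosomal protein genes had a median of 0.02 in wake hearts, -0.07 in sleep hearts and -0.04 over both times, and the 2 lists were not tested against each other.

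The mTORC1 and translational control list gave 4 higher and 0 lower of 16 after wake MI, 1 higher and 1 lower after sleep MI, and 3 higher and 4 lower over both times. Among all genes, 7.79% rose and 10.7% fell after wake MI, 1.68% and 0.975% after sleep MI, and 8.49% and 13.6% over both times. Ppp1r15a, the stress-induced partner that directs a phosphatase to eIF2 (GADD34), rose by 1.38 in wake hearts (SE 0.17, adjusted p = 0.000256), by 1.06 in sleep hearts (adjusted p = 0.00561) and by 1.22 over both times (adjusted p = 2.23e-05). Sesn1 (sestrin 1, an mTORC1 inhibitor) rose by 1.01 in wake hearts (adjusted p = 0.00324) and was lower in wake than in sleep sham hearts by -1.0 (adjusted p = 0.0177), and Ppp1r15b rose by 0.41 in wake hearts (adjusted p = 0.0287). Tsc1, an mTORC1 inhibitor, fell by 0.56 in sleep hearts (adjusted p = 0.0414) and by 0.42 over both times (adjusted p = 0.00718). In the termination and poly(A) list, 1 of 15 rose and 2 fell in wake hearts, near the 18.5% of all genes called. Ddx3x, a helicase of initiation, rose by 0.73 (adjusted p = 0.00583), Paip2b, an inhibitor of poly(A)-binding protein, fell by 0.67 (adjusted p = 0.00279) and Mcts1, a recycling factor, fell by 0.38 (adjusted p = 0.0301). Of 21 aminoacyl-tRNA synthetase genes 0 were called in wake hearts (4 at an unadjusted p below 0.05), and Aimp1, their scaffold, fell by 0.27 over both times (adjusted p = 0.0357). Of 7 nascent chain factors 0 were called in wake hearts (1 at an unadjusted p below 0.05).

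Beside these changes, the beta-actin ratio and the summed neutrophil, atrial, fibroblast, macrophage and endothelial markers given above also separated the wake groups without overlap. With the beta-actin ratio in the fit, the wake calls went from 11 to 2 factor genes (Eif5 and Eif6) and from 1 to 0 ribosomal protein genes, and over both times from 11 to 5 factor genes and from 1 to 0 ribosomal protein genes (Rps9 -0.22, adjusted p = 0.114). Several sizes stayed while their SE grew: in wake hearts Eif1a was at 1.02 (adjusted p = 0.0888), Eif2ak4 at 0.83 (0.056), Eif1b at -0.56 (0.0608) and Eif4ebp1 at 0.57 (0.116). Others shrank, among them Eif3m to -0.18 (adjusted p = 0.512) and Eif3d to 0.18 (adjusted p = 0.504). Because that ratio differed between the wake groups without overlap, RNA breakdown and MI cannot be told apart there.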

How the data were processed

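Intensity values per probe set, 1 column per array, are the deposited MAS5 values, credited to the submitters' processing notes. Settings of MAS5 and detection calls were not at hand. Per the labels, RNA was extracted with Trizol and labelled with biotin. Each array had a 2% trimmed mean of 150, and no further scaling was applied. Of 22690 probe sets, 64 controls were left out, and 20380 of the others list 1 symbol, 691 several and 1555 none. Genes were tested where the mean of log2(signal + 16) reached the 40th percentile (signal 16.8), which left 8101.

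Differences between the 4 groups were tested by limma 3.58.1 under R 4.3.3 (all 12 arrays, intensity trend, two-sided). The method was checked on simulated data with genes drawn independently. There it recovered 37% of 100 changes of 0.5 and 94% of 100 changes of 1 on the log2 scale. Intervals are 95% intervals from the limma fit to the 12 arrays. Their precision is limited by the number of arrays and by the spread of each probe set. The labels call the 3 mice of a group biological replicates. An exact permutation test of 3 against 3 cannot reach a p of 0.05. All 101 members matched RefSeq by Entrez identifier, with 0 symbols changed, and sequences are RefSeq's. Members, lists and tests were chosen with earlier results of these data known. Named were up to 10 called members per class with the largest rise and 10 with the largest fall in each comparison, a panel given called or not, paralog partners, and the 3 called genes with the smallest adjusted p per pathway list. Alternatives were constants of 1 and 64, other level filters, quantile normalization, median centring, averaging all probe sets per gene, other variance models, the compared groups alone, a replicate block, a beta-actin covariate, each array left out and an adjusted p below 0.01. Tables and figures were made with Python 3.11.15, numpy 2.4.6, pandas 2.3.3 and matplotlib 3.10.9.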

Additional observations from a re-analysis of the deposited data

How the results depend on the processing

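Of 25 gene and comparison pairs called, 16 kept the call whichever array was left out, and 6 kept it in every alternative (Eif1a and Eif1b over both times, Eif5 and Eif6 in wake hearts and over both times). The count of ribosomal protein genes called after wake MI was 1 and became 4 with quantile normalization, 2 with the mean of probe sets, and 0 with the beta-actin covariate or at an adjusted p below 0.01 (0 to 2 with an array left out, 2 without wake MI 2 or sleep sham 2). After sleep MI it was 0 and became 1 with quantile normalization (0 to 1 with an array left out, 1 without sleep sham 2). Over both times it was 1 and became 4 with quantile normalization and 2 with the mean of probe sets (1 to 4 with an array left out, 4 without sleep sham 2, and 2 without wake sham 2 or sleep MI 3). For factor genes, wake MI went from 11 to 7 with the compared groups alone, 2 with the beta-actin covariate and 6 at an adjusted p below 0.01 (6 to 11 with an array left out, 6 without wake sham 3, and 7 without wake sham 1 or wake MI 2). Sleep MI went from 1 to 0 at an adjusted p below 0.01 (0 to 2 with an array left out, 2 without wake MI 3 or sleep sham 2), sham hearts from 0 to 1 with the compared groups alone (0 to 1 with an array left out, 1 without wake MI 3, wake sham 2 or sleep sham 3), and both times from 11 to 5 with the beta-actin covariate and 6 at an adjusted p below 0.01 (9 to 13 with an array left out). Median centring gave 9 higher and 4 lower over both times, against 5 and 6. Directions reversed for Eif3m with the mean of probe sets (0.070 over both times, 0.080 in wake hearts), for Rpl7 in wake hearts with the mean of probe sets (-0.31, adjusted p = 0.0428) and for Eif2s3y over both times without wake MI 3 (0.26). The cause was not tested. Median differences stayed within 0.13 of 0 in all settings, apart from the sham median of ribosomal protein genes, -0.19 without sleep sham 2.

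Replicate numbers did not pair the arrays: correlations of same-numbered deviations ran from -0.175 to 0.251, with 5 of 18 over 0.1. With the replicate block, wake MI gave 9 factor genes and 1 ribosomal protein gene, and both times gave 11 and 1.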

Other observations

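The arrays carry 3 control probe sets for 18S ribosomal RNA, which the comparisons above leave out. The 3' probe set read 649, 447 and 396 in wake MI hearts, 911, 676 and 762 in wake sham hearts, 654, 723 and 758 in sleep MI hearts and 860, 683 and 852 in sleep sham hearts. All 3 wake MI hearts were below all 3 wake sham hearts. The middle probe set averaged 587 ± 316 in wake MI and 971 ± 271 in wake sham hearts, and the 5' probe set 331 ± 176 and 721 ± 249 (mean ± SD, n = 3), and both overlapped between these groups. No test was made on these 3 probe sets.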
